A study of Mus musculus with 6 samples.

Results

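The cytochrome P450 genes were followed in C2C12 cells, an established line of mouse myoblasts, with and without the nucleoside analogue 5-azacytidine (5AC). Members were chosen by gene symbol: every probe set whose only symbol was Cyp, a family number, a subfamily letter and a gene number. This gave 93 probe sets for 70 genes, of 45037 probe sets and 18193 genes in all, and no intensity entered the rule. The family was nevertheless put forward with results of this contrast known, so the counts and p-values are descriptions and no independent support, and Cyp2c55, known beforehand as a large increase, is given without a p. The untreated group held 3 arrays of subconfluent cells, plated at 1500 cells per cm2, grown for a day in DMEM with newborn calf serum and then kept for 3 days in the same medium without 5AC. The 5AC group held 3 arrays of cells plated and kept in the same way with 10 µM 5AC in the medium for the 3 days. Total RNA of day 3 was hybridised to 1-colour Affymetrix whole-genome mouse GeneChip arrays, and both groups are 1 cell line at 1 dose and 1 time. No label states that replicates came from separate cultures; p-values therefore rest on the scatter among these 6 arrays alone, and that scatter may be purely technical.

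Cytochrome P450 enzymes are haem proteins that insert oxygen into small molecules, with electrons passed on by reductases, cytochrome b5 or ferredoxin. Families 1 to 3 act largely on drugs and other foreign chemicals and on fatty acids, family 4 hydroxylates fatty acids, and single members of other families make or clear bile acids, oxysterols, steroid hormones, vitamin D and retinoic acid. Many members are best known from liver, intestine, kidney, adrenal gland or the olfactory lining rather than from muscle. 5AC is built into nucleic acids, where it traps the enzymes that methylate cytosine in DNA, chiefly at CG dinucleotides.

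The deposited values are linear probe-set intensities. Array medians lay between 20.36 and 21.04, and 2.42% to 2.59% of the values on an array were below 0. Changes are differences of log2(intensity + 1), 5AC minus untreated, with values below 0 set to 0. Because that scale magnifies changes of dim probe sets, the change with 16 added in place of 1 is given beside it. A gene or probe set is called past the threshold at a limma adjusted p (Benjamini-Hochberg, over all features of the fit) under 0.05. Where probe sets are said to be dim, the mark is 20.7, the median over all probe sets of the mean intensity; a probe set below it may still be measured. Of the 10 myoblast markers, 9 had a mean above that mark; the other was Pax7, which marks muscle stem cells.

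Most P450 genes were dim in these cells and few moved. Only 12 of the 70 had a mean above 20.7, and 50 stayed below it on all 6 arrays. Cyp2c55, Cyp1b1 and Cyp4v3 rose, Cyp39a1, Cyp3a13, Cyp2g1 and Cyp7a1 fell, and the other 63 did not pass the threshold. Over all genes 29.3% passed, 15.5% upwards and 13.8% downwards, so the members' 7 of 70 was a smaller share than the background. The median change of the 70 members was -0.04 on the log2 scale (-0.02 with 16 added), against 0.01 over all genes (0.006 with 16). At most single members of a subfamily moved: the 34 subfamilies included 11 Cyp2c genes with 1 past the threshold, 8 Cyp2d genes with 0, 6 Cyp4f genes with 0, 5 Cyp2j genes with 0, 5 Cyp3a genes with 1 and 4 Cyp2b genes with 0.

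The share past the threshold was larger among brighter members. Of the 12 members above 20.7, 4 passed, namely Cyp2c55, Cyp1b1 and Cyp4v3 upwards and Cyp39a1 downwards, where 42.9% of all genes above that mark did. Of the 58 members at or below it, 3 passed, where 6.9% of all such genes did. The mark was applied to the mean over all 6 arrays. Cyp2c55 is above it only through its 5AC arrays, with means of 8.91 untreated and 582.6 with 5AC. Its place among the brighter members is thus not independent of its change. The median standard error of a change was 0.29 for the members and 0.13 over all genes. The 3 untreated and 3 5AC arrays did not overlap for 14 of the 70 members, 5 with 5AC above and 9 with 5AC below, against 45.3% of all genes. Members past the threshold with a change of at least 2-fold were Cyp2c55 and Cyp39a1, and 5.14% of all genes met both limits.

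**Figure D1:**
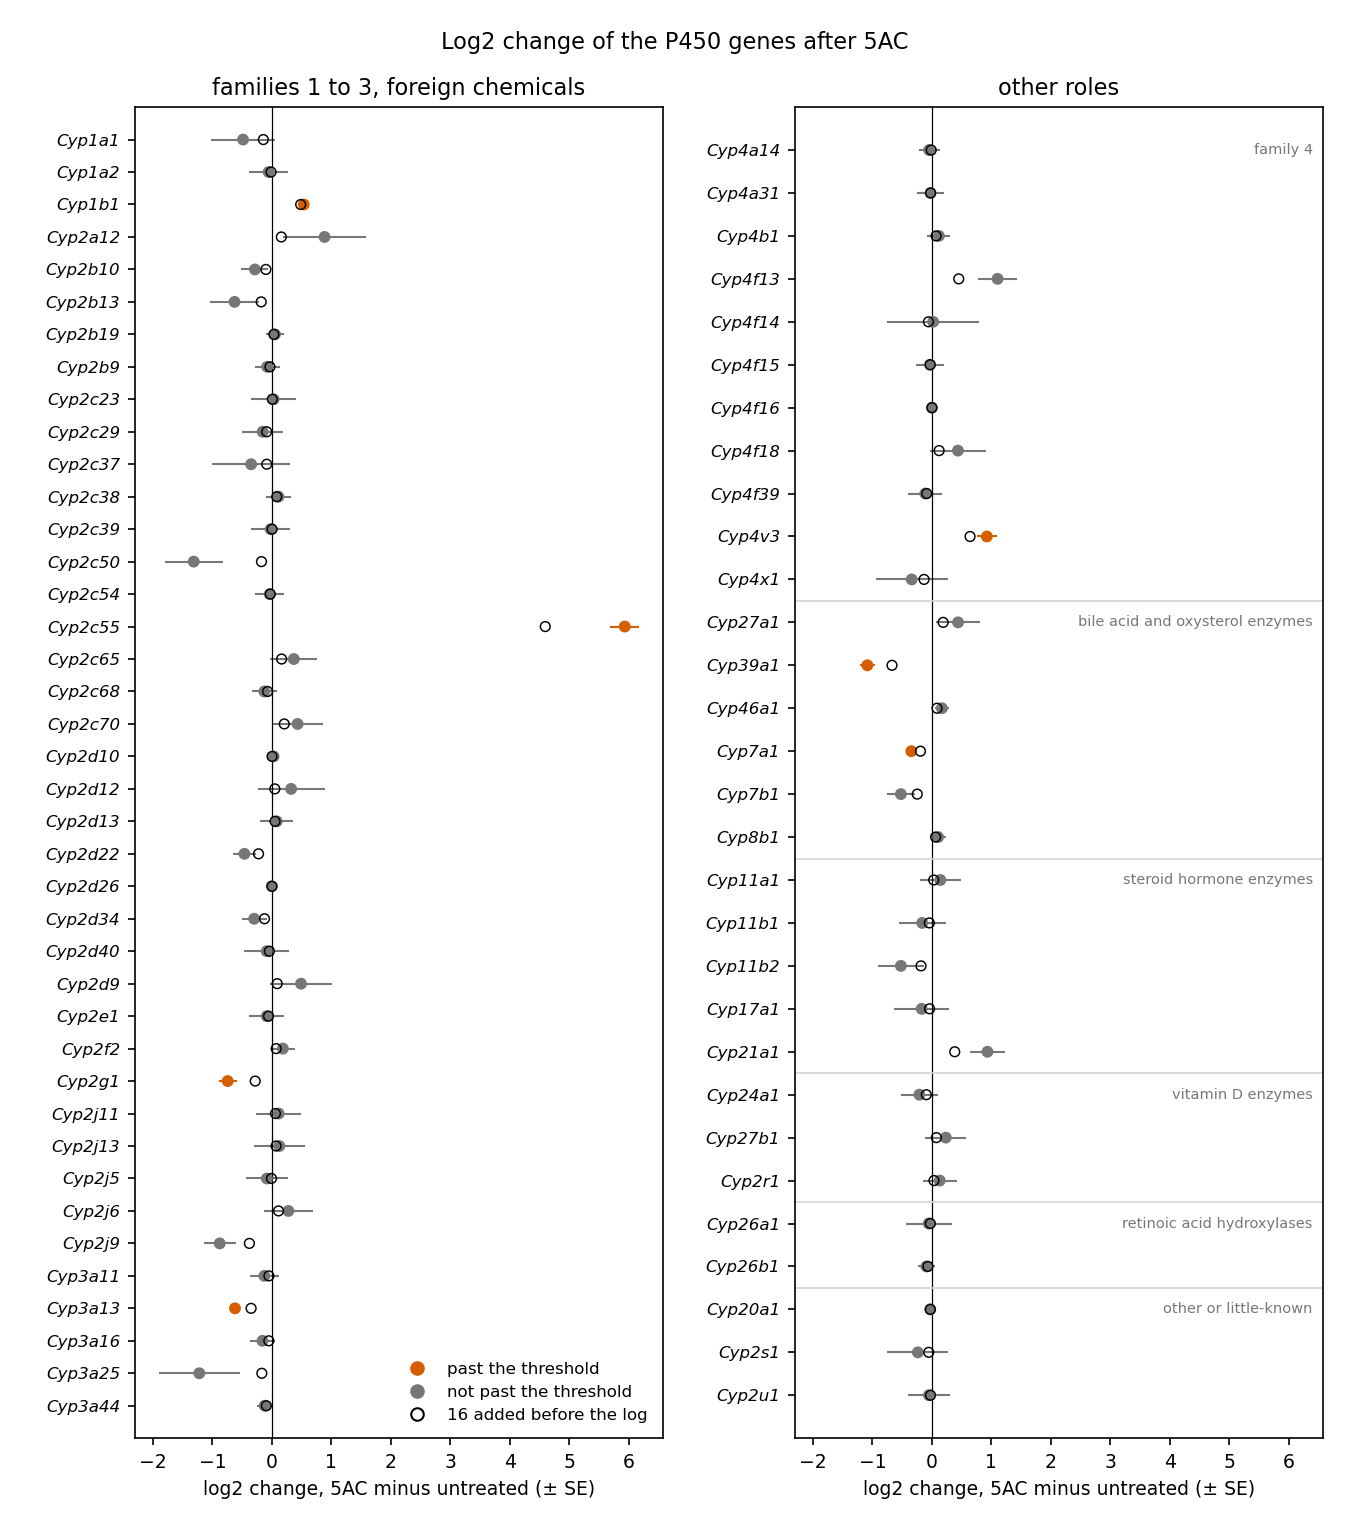
Log2 change (5AC minus untreated) of each of the 70 P450 genes, families 1 to 3 on the left, except Cyp2r1, Cyp2s1 and Cyp2u1, which stand with the other roles on the right; filled points have 1 added before the log, with standard-error bars, orange ones passed the threshold, and open circles have 16 added. Cyp2c55 stands apart at 5.93, and without it the changes run from -1.31 to 1.10 with 1 added and from -0.67 to 0.64 with 16 added.

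Cyp2c55 converts arachidonic acid to hydroxylated products and is known from mouse colon. Its intensities were 6.70, 7.27 and 12.8 on the untreated arrays and 571.8, 553.1 and 622.8 on the 5AC arrays. The untreated values lie below the median probe set, while each 5AC value lies far above it. The means were 8.91 ± 3.34 and 582.6 ± 36.1 (SD, n = 3 each). The log2 change was 5.93 ± 0.24 (SE), or 4.59 with 16 added. By this measure it was the sixth largest increase of the 18193 genes, and the fifth with 16 added; both ranks rest on untreated values below the median probe set. At the gene level it was past the threshold in every alternative run here. At the probe-set level it was not with the replicate number as a block, where 0 of all 45037 probe sets passed. As Cyp2c55 was known beforehand, these calls describe the processing and are no support. The fit of features above the median mean kept Cyp2c55 only through its 5AC arrays. With any 1 array left out the change lay between 5.77 and 6.19. It has 1 probe set, so no second measure of this transcript was at hand.

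Cyp1b1 oxidises aromatic hydrocarbons and oestrogens and is known from mesenchymal cells. It was among the brighter P450 probe sets before treatment. Its intensities were 118.4, 116.5 and 112.6 untreated and 177.4, 158.0 and 170.1 with 5AC. The groups were clear of each other, with means of 115.9 ± 2.93 and 168.5 ± 9.80 (SD, n = 3 each). The change was 0.54 ± 0.07 (SE), with a limma adjusted p of 0.00394 (0.48 with 16 added). A second Cyp1b1 probe set had 41.4 untreated and 71.9 with 5AC on average, a change of 0.81 with an adjusted p of 0.0645 in the limma fit over all probe sets. The third was dim on all arrays, with a change of -0.19 and an adjusted p of 0.822 there. Cyp1a1 and Cyp1a2, the other family 1 genes, which act on polycyclic hydrocarbons and aromatic amines, were dim: Cyp1a1 changed by -0.49 ± 0.54 and Cyp1a2 by -0.06 ± 0.33 (SE).

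**Figure D2:**
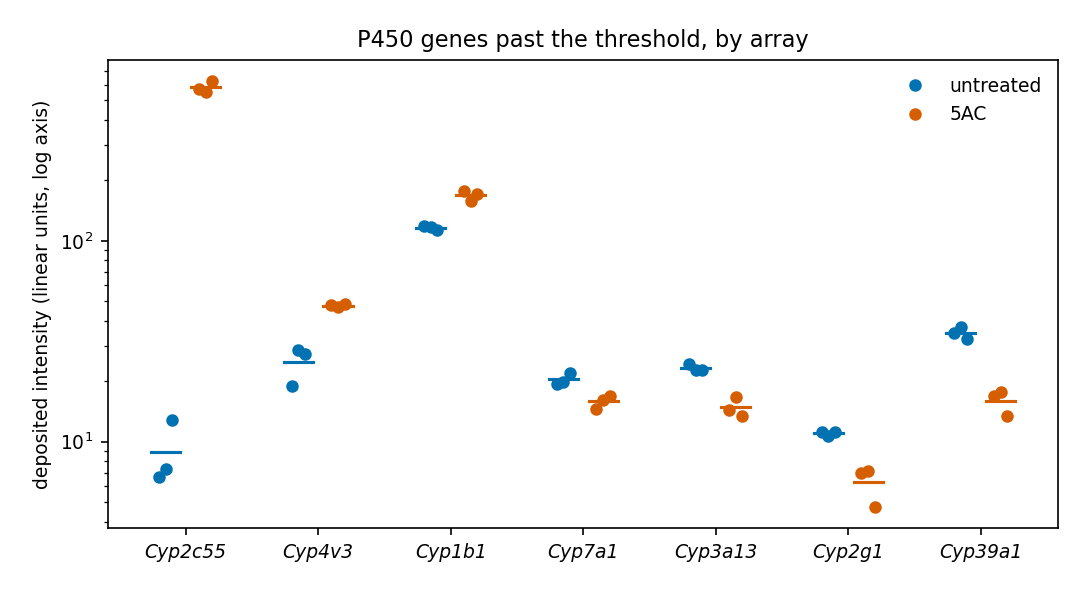
Intensity on each of the 6 arrays (log axis) of the 7 P450 genes past the threshold, untreated and 5AC arrays side by side with the group means. Cyp2c55 goes from between 6.70 and 12.8 to between 553.1 and 622.8; the other 6 genes shift far less, and in each of the 7 the groups do not overlap.

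The mouse Cyp2c genes are a large subfamily of drug and arachidonate oxidases that lie mostly in 1 cluster. In the RefSeq gene table (GRCm38.p6) 14 protein-coding Cyp2c genes follow each other on chromosome 19 between Hells and Pdlim1, and 10 of them were measured. Cyp2c55 is the first, next to Hells. None of the 9 other measured genes of the cluster passed the threshold in the limma fit; 1 of them, Cyp2c50, had an unadjusted p under 0.05. Their intensities lay between -0.69 and 67.7 over all arrays, and their log2 changes between -1.31 and 0.43 (-0.18 to 0.21 with 16 added). Their 95% confidence intervals reached from -2.56 to 1.50 in all, and none held a change as large as the 5.93 of Cyp2c55. The intervals rest on the scatter of these 6 arrays and leave room for sizeable changes. They describe the readings of mostly dim probe sets, 1 per gene, and cannot exclude a larger change of a transcript. The nearest, Cyp2c65, had 9.33, 7.67 and 5.49 untreated and 12.1, 5.22 and 14.3 with 5AC, with overlapping groups. Its probe set carries the suffix with which Affymetrix marks probes shared by several transcripts, so a close relative could contribute to it. Cyp2c23, the Cyp2c gene outside the cluster, changed by 0.03.

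The genes on the other side of Cyp2c55 were brighter. Hells, a chromatin remodeller needed for normal DNA methylation, had 358.4, 337.6 and 336.8 untreated and 386.2, 368.8 and 361.2 with 5AC. Its change was 0.11 ± 0.06 (SE), with a limma adjusted p of 0.228. The next genes outwards did rise. Tbc1d12, which encodes a protein with a Rab GTPase-activating domain, went from 38.6, 40.3 and 33.7 to 106.2, 121.9 and 102.1, a change of 1.53 ± 0.11 (adjusted p 0.000982). Noc3l, a nucleolar gene, went from 51.5, 79.2 and 55.3 to 208.9, 203.0 and 195.8, a change of 1.72 ± 0.17 (adjusted p 0.00235). Beyond the other end of the cluster Pdlim1, a cytoskeletal adaptor, rose by 0.55 ± 0.05 (adjusted p 0.00193), while the next genes, Aldh18a1 of proline synthesis at -0.19 (adjusted p 0.0616) and Tctn3 of the primary cilium at 0.30 (0.0718), did not pass.

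**Figure D3:**
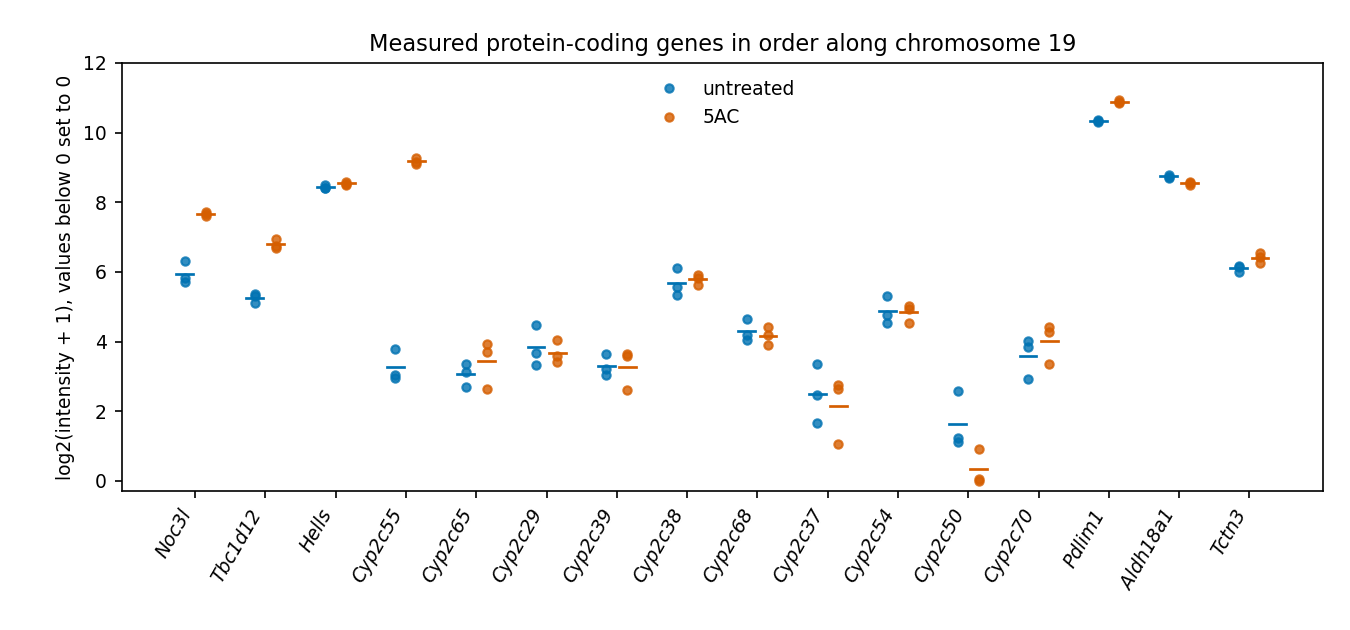
Log2(intensity + 1) on each of the 6 arrays (points, with a bar for each group mean) of the measured genes in their order along chromosome 19, from Noc3l through the Cyp2c cluster to Tctn3. The untreated and 5AC arrays of Cyp2c55 lie 5.93 apart on average, while those of Hells on one side differ by 0.11 and those of Cyp2c65 on the other by 0.37.

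Promoter sequence is shown for 4 of the genes past the threshold and for Cyp2c65, its nearest relative in the cluster, which did not pass, because CG is the dinucleotide at which the enzymes trapped by 5AC act. DNA methylation was not measured here. Each line gives the 250 bases before the start of the gene, 5′ to 3′ on the gene's strand, from RefSeq on GRCm38.p6, with every CG in capitals.
Cyp2c55, chr19:39006769-39007018, plus strand: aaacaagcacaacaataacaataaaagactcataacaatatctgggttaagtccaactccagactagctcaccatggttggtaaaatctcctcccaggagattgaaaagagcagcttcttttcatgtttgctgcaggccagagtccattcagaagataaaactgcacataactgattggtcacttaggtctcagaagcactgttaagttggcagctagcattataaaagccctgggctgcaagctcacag
Cyp2c65, chr19:39060756-39061005, plus strand: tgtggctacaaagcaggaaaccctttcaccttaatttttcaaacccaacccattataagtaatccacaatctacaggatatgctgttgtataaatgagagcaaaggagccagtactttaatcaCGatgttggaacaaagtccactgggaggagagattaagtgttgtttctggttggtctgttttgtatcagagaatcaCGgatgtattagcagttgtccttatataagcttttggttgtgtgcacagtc
Cyp3a13, chr5:137921620-137921869, minus strand: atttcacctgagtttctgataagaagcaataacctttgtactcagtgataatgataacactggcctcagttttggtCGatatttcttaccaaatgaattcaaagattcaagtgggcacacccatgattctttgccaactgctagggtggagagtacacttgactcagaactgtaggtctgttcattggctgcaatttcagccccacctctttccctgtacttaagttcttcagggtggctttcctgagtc
Cyp1b1, chr17:79715062-79715311, minus strand: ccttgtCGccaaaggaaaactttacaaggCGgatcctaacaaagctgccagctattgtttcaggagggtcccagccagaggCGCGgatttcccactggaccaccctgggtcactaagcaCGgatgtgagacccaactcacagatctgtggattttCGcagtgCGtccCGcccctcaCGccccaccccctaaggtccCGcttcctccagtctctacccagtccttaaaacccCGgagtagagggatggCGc
Cyp4v3, chr8:45333164-45333413, minus strand: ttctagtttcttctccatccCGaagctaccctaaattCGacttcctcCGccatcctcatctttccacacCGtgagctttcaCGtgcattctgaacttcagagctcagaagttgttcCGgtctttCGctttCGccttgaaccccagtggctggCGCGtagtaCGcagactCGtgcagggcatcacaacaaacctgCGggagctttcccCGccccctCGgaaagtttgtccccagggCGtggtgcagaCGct
The Cyp2c55 stretch holds 0 CG, that of Cyp2c65 2 and that of Cyp3a13 1, whereas that of Cyp1b1 holds 12 and that of Cyp4v3 17. The genes that rose thus include both a promoter free of CG and promoters rich in it.

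RefSeq promoter windows of 300 bases (250 before to 50 after the start) were matched to 51 of the 70 members by symbol, 58 windows in all. Cyp39a1, Cyp2g1 and Cyp7a1 were among the 19 without one. The members' windows were poor in CG, with a median of 3 against 7 over all 32851 windows. Windows without any CG belonged to Cyp2c38, Cyp2c55, Cyp2f2 and 1 of the windows of Cyp4f14, against 5.43% of all windows. The 9 matched Cyp2c genes held at most 4. Taking the highest count where a gene had several windows, fewer than 10 CG were found in 42 members and 10 or more in 9. Of the 42, 2 (Cyp2c55 and Cyp3a13) were past the threshold, and of the 9, 2 (Cyp1b1 and Cyp4v3) were. Among all genes 29.3% passed, but that share was not taken by CG count. A link between CG count and change was therefore not tested. Of all windows, 43.5% hold 10 or more. The letters GCGTG, the core to which the aryl hydrocarbon receptor is known to bind, were searched on both strands, and each match holds a CG that is also in the counts above. They were found in windows of 13 of the 51 matched members, and in 32.4% of all windows, a share of windows and not of genes. Of the 13, Cyp1b1 and Cyp4v3 were past the threshold. The others, Cyp1a1, Cyp20a1 and Cyp46a1 among them, were not. A match is a description of the letters and not a site.

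**Figure D4:**
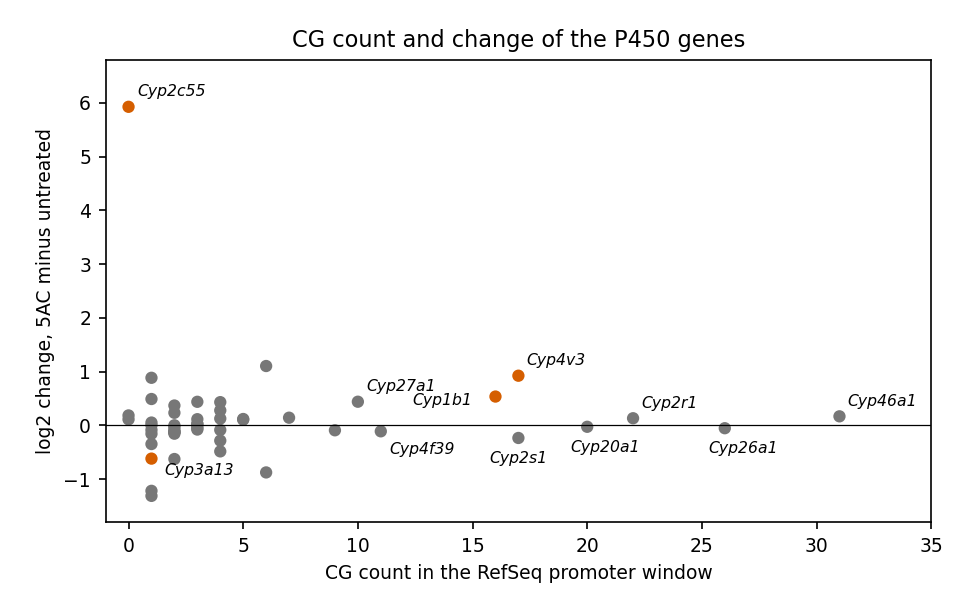
Number of CG in the 300-base RefSeq promoter window (the highest where a gene has several) against the log2 change (5AC minus untreated) of the 51 matched P450 genes; coloured points passed the threshold. Cyp2c55 lies at 0 CG and 5.93, while the 9 genes with 10 or more CG lie between -0.24 and 0.92.

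Among the rest of families 1 to 3, Cyp3a13 and Cyp2g1 fell and none rose past the threshold. Cyp2r1, Cyp2s1 and Cyp2u1 of family 2 are left to their own roles further on. With Cyp2c55 and Cyp1b1 the group had 40 genes, with a median change of -0.07. Of the 40, 2 rose and 2 fell, where 15.5% of all genes rose and 13.8% fell past the threshold. Cyp3a13, a drug-metabolising gene of the Cyp3a subfamily also known outside the liver, had 24.2, 22.8 and 22.8 untreated and 14.4, 16.6 and 13.4 with 5AC. All 5AC arrays lay below all untreated ones, and the change was -0.62 ± 0.09 (SE), with a limma adjusted p of 0.00675 (-0.35 with 16 added). Its 4 measured relatives did not pass; the 5 Cyp3a changes ran from -1.22 to -0.12, the lowest being Cyp3a25 at -1.22 ± 0.68 (-0.17 with 16 added). Cyp2g1, known from the olfactory lining, had 11.2, 10.6 and 11.2 untreated and 6.94, 7.13 and 4.74 with 5AC. These values were dim throughout, and the change of -0.74 ± 0.15 (adjusted p 0.0189) came to -0.28 with 16 added. The call of Cyp2g1 was lost with untreated array 1, 2 or 3 left out, at adjusted p between 0.0566 and 0.0629.

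The Cyp2d, Cyp2j and Cyp2b genes, oxidases of drugs and, for Cyp2j, of arachidonic acid, had no member past the threshold. The 8 Cyp2d changes ran from -0.46 to 0.49. Cyp2d26 was below 0 on all 6 arrays (-7.62 to -2.37), so no change can be measured for it. The 5 Cyp2j changes ran from -0.88 to 0.28, and the 4 Cyp2b changes from -0.63 to 0.05. The lowest of the Cyp2j genes was Cyp2j9, a brain-enriched arachidonate oxidase, with means of 14.3 untreated and 7.13 with 5AC and a limma adjusted p of 0.0678.

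In family 4, Cyp4v3 alone of 11 genes passed the threshold, where 29.3% of all genes did. Cyp4v3 hydroxylates fatty acids, and loss of its human counterpart causes a crystalline dystrophy of the retina. It had 19.003, 28.7 and 27.3 untreated and 47.8, 46.7 and 48.2 with 5AC. The 5AC arrays were close to each other and all above the untreated ones, with means of 24.98 ± 5.22 and 47.5 ± 0.79 (SD, n = 3 each). The change was 0.92 ± 0.16 (SE), with a limma adjusted p of 0.0125 (0.64 with 16 added). The probe set used for Cyp4v3 carries the same shared-probe suffix as that of Cyp2c65. The second Cyp4v3 probe set, without that suffix, rose by 0.57, with a limma adjusted p of 0.0425 in the fit over all probe sets. Cyp4f13, of a subfamily that hydroxylates leukotrienes and long fatty acids, had the largest change of the group, from 5.11, 11.5 and 4.69 to 17.3, 14.05 and 14.7. The groups did not overlap, but its change of 1.10 ± 0.33 had a limma adjusted p of 0.0606 (0.45 with 16 added). Cyp4f16, a bright probe set of the same subfamily, had 104.7 to 111.2 untreated and 104.1 to 113.3 with 5AC, and the 95% interval of its change was -0.15 to 0.15. The other Cyp4f genes lay between -0.11 and 0.44.

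Of the 6 enzymes of bile acid and oxysterol metabolism, 2 fell and 0 rose, where 13.8% of all genes fell and 15.5% rose. None of the 6 had an unadjusted limma p under 0.05 in the upward direction. The mean of 5 of the 6 was at or below 20.7, where 6.9% of all genes passed. Cyp39a1, an oxysterol hydroxylase of bile acid synthesis, had 34.8, 37.4 and 32.5 untreated and 17.0, 17.6 and 13.4 with 5AC. Each 5AC value was well below each untreated one, with means of 34.9 ± 2.44 and 15.99 ± 2.25 (SD, n = 3 each). The change was -1.08 ± 0.12 (SE), with a limma adjusted p of 0.00309 (-0.67 with 16 added). Cyp7a1, the rate-limiting enzyme of bile acid synthesis in liver, had 19.5, 19.7 and 22.003 untreated and 14.5, 16.2 and 16.9 with 5AC. Its change was -0.35 ± 0.09, with an adjusted p of 0.0352 (-0.19 with 16 added). That call was lost with any 1 of the 6 arrays left out (adjusted p between 0.0553 and 0.0913), in the fit over all probe sets (0.0684), and with the probe sets of a gene averaged (a change of -0.21, adjusted p 0.582). The second Cyp7a1 probe set changed by -0.07. Cyp7b1, which hydroxylates oxysterols, changed by -0.52 ± 0.24 (limma adjusted p 0.174), and Cyp27a1, the mitochondrial sterol hydroxylase, by 0.44 ± 0.37. Their further probe sets, all with overlapping groups, went the other way: 0.61 and 0.11 for Cyp7b1 and -0.05 for Cyp27a1. Cyp46a1, the brain cholesterol hydroxylase, changed by 0.17 ± 0.12 and Cyp8b1, which shapes the bile acid pool, by 0.10 ± 0.14.

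The steroid hormone, vitamin D and retinoic acid enzymes held no member past the threshold. Of the 5 steroid enzymes, all dim, Cyp21a1 of the adrenal cortex had the largest change, from 7.28, 8.38 and 4.49 to 15.98, 15.7 and 9.44. Its groups did not overlap, and its change of 0.93 ± 0.29 had a limma adjusted p of 0.0692 (0.38 with 16 added). The second Cyp21a1 probe set changed by 0.33, with overlapping groups. No other steroid enzyme had an unadjusted limma p under 0.05. Of the vitamin D enzymes, Cyp27b1, which makes the active hormone, had 9.03, 4.41 and 11.3 untreated and 7.21, 10.6 and 10.4 with 5AC, with overlapping groups and a 95% interval of its change of -0.65 to 1.11. Cyp24a1, which breaks the hormone down, changed by -0.21 ± 0.31 (interval -1.00 to 0.58), and Cyp2r1, the liver hydroxylase, by 0.13 ± 0.29. Cyp26b1, which clears retinoic acid, had 39.99, 27.7 and 30.5 untreated and 30.8, 29.8 and 30.2 with 5AC, a change of -0.09 ± 0.14 (interval -0.46 to 0.27). Its relative Cyp26a1 changed by -0.05 ± 0.39. In these 3 groups 1 gene (Cyp21a1) had an unadjusted p under 0.05.

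Cyp20a1, an enzyme of unsettled substrate, was the brightest member before treatment, with 474.2, 490.2 and 428.8, and had 460.1, 488.2 and 419.0 with 5AC. The groups overlapped and the 95% interval of its change was -0.25 to 0.20. Cyp2s1, an epithelial enzyme, had 12.4, 9.37 and 7.24 untreated and 12.3, 11.6 and 3.18 with 5AC, a change of -0.24 ± 0.51. For Cyp2u1, which acts on long fatty acids, the 2 probe sets differed: the one that stood for the gene changed by -0.05, and the other rose by 0.99 (0.44 with 16 added), with an adjusted p of 0.0230 in the limma fit over all probe sets. In that fit, 5 of the 93 P450 probe sets rose, namely those of Cyp2c55, Cyp1b1 and Cyp2u1 and both of Cyp4v3. The 3 that fell were those of Cyp39a1, Cyp3a13 and Cyp2g1. Over all probe sets 16.9% passed. Of the 18 members with several probe sets, 0 had probe sets past the threshold in both directions.

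Markers of hepatocytes, intestinal epithelium, leukocytes, keratinocytes and myoblasts give a measure of what else was present. Markers of kidney, adrenal gland and olfactory lining were not among the lists. Over all genes 29.3% passed the threshold. Of 13 measured hepatocyte markers, limma called 0 (1 had an unadjusted p under 0.05), 7 were below 20.7 on all arrays, and their summed intensity was 149.6 to 179.8 untreated and 138.7 to 170.7 with 5AC. Albumin lay between -0.26 and 6.36. Of 12 intestinal epithelium markers, 1 fell, 11 were below 20.7 on all arrays, and the sums were 79.0 to 106.5 untreated and 91.4 to 126.2 with 5AC. The intestinal Fabp2 and Vil1 lay between 0.49 and 9.45. Of 10 macrophage and leukocyte markers, 0 were called (0 had an unadjusted p under 0.05), with sums of 263.2 to 278.7 and 248.1 to 260.5. Of 11 keratinocyte markers, 2 rose and 1 fell, 6 were below 20.7 on all arrays, and the sums went from between 359.3 and 397.2 to between 766.0 and 842.8. The 2 were Perp, a desmosome gene, by 3.63, and Krt14, a basal keratin, by 2.14. The other 8 keratinocyte markers did not pass. The median change of the 11 was -0.03 (-0.01 with 16 added), and the changes ran from -1.00 to 3.63. The larger sums were therefore not a shift of the list as a whole. Of the 10 myoblast markers 7 fell and 1 rose, with sums of 6356 to 6664 untreated and 5208 to 5505 with 5AC. The part of these markers' shifts in the P450 changes was not tested; in such bulk RNA, fewer cells of a type and less RNA per cell cannot be told apart.

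The genes that serve the P450 enzymes moved in both directions. Over all genes 29.3% passed the threshold, and 42.9% of those with a mean above 20.7 did. Above that mark were 9 of the 10 redox partners and 14 of the 15 haem genes below. No list was tested as a set. Of the 10 measured redox partners, 4 rose and 3 fell, with a median change of 0.11. Cyb5a, the microsomal cytochrome b5, fell from 523.4 to 200.8 on average (-1.38, limma adjusted p 0.000544), and Cyb5b, its mitochondrial relative, by 0.95. Cyb5r1 rose by 0.67 and Cyb5r3 fell by 0.33; both encode cytochrome b5 reductases. The 4 that rose became 1 without untreated array 2 or 5AC array 2, and 2 without 5AC array 1 or 3. Of 15 measured genes of haem synthesis and breakdown, 2 rose and 3 fell, with a median of -0.06. Alas1, the first enzyme of haem synthesis, rose by 0.63 (adjusted p 0.0251) and Abcb10, a mitochondrial transporter, by 0.38, while Blvrb, a biliverdin reductase, fell by 0.84 and Ppox, a late enzyme of the synthesis, by 0.42. Among features above the median mean 5 rose, and with 16 added 5 fell. The 2 became 1 with any array but untreated array 3 left out, and the 3 became 1 without untreated array 3, 5AC array 1 or 5AC array 2.

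Of 34 measured receptors and factors that control P450 genes, 7 rose and 3 fell, with a median of -0.01. Their share past the threshold was near that of all genes (29.3%, of which 15.5% upwards). Vdr, the vitamin D receptor, rose from a mean of 47.3 to 177.1 (1.89 ± 0.11, limma adjusted p 0.000751), while Cyp24a1, its known target, did not pass the threshold. Ahrr, the repressor of the aryl hydrocarbon receptor, rose by 1.35 from a dim level (0.52 with 16 added, adjusted p 0.00485), and Pparg, a fatty acid receptor, by 0.83. Cebpa, a liver and fat transcription factor, fell by 1.05. Ahr itself, named here after its values were seen, fell by 0.68 (adjusted p 0.00336).

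Of the enzymes that conjugate or further oxidise foreign chemicals, those past the threshold had fallen, at a total share near that of all genes (29.3%, of which 13.8% downwards). Of 45 measured, 13 fell and 0 rose in the limma fit, and 1 had an unadjusted p under 0.05 upwards; the median change was -0.31 (-0.12 with 16 added). The 0 became 1 without untreated array 1 or 5AC array 1. Aldh3a1, an aldehyde dehydrogenase, fell from a mean of 242.0 to 51.3 (-2.22), and the glutathione transferases Mgst1 by 1.51, Gstm1 by 1.15 and Mgst3 by 0.92. Of 20 genes of retinoid metabolism and signalling, 4 rose and 0 fell (0 had an unadjusted limma p under 0.05 downwards), with a median of 0.22. These were Crabp1 by 0.95 (0.30 with 16 added) and Crabp2 by 0.40, which bind retinoic acid in the cell, the receptor Rxrb by 0.71 and Rdh10, a retinol dehydrogenase, by 0.68. The 4 became 2 without untreated array 1 or 5AC array 3. Over all genes 15.5% rose past the threshold.

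Of 20 genes of steroid hormone synthesis outside the P450 family, 3 rose and 4 fell, with a median of 0.01. The background for this list and the next is 29.3% of all genes, 15.5% upwards and 13.8% downwards. Hsd3b7, which acts on bile acid intermediates beside Cyp7a1 and Cyp39a1, fell by 1.69, Tspo, a mitochondrial outer membrane protein, by 0.63 and Hsd17b7, of cholesterol and oestrogen synthesis, by 0.62. Stard3, a cholesterol carrier, rose by 0.84. The 3 became 1 without untreated array 2, 5AC array 1 or 5AC array 2. Of 20 genes of arachidonate metabolism, 4 rose and 6 fell, with a median of -0.02. The 4 became 2 with the probe sets of a gene averaged and 2 among features above the median mean. Alox5ap fell by 3.09, Alox5 by 1.18 and Ptges by 0.83, and Ltc4s rose by 3.24 from a dim level (1.12 with 16 added); the first pair and Ltc4s make leukotrienes and Ptges makes prostaglandin E.

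**Figure D5:**
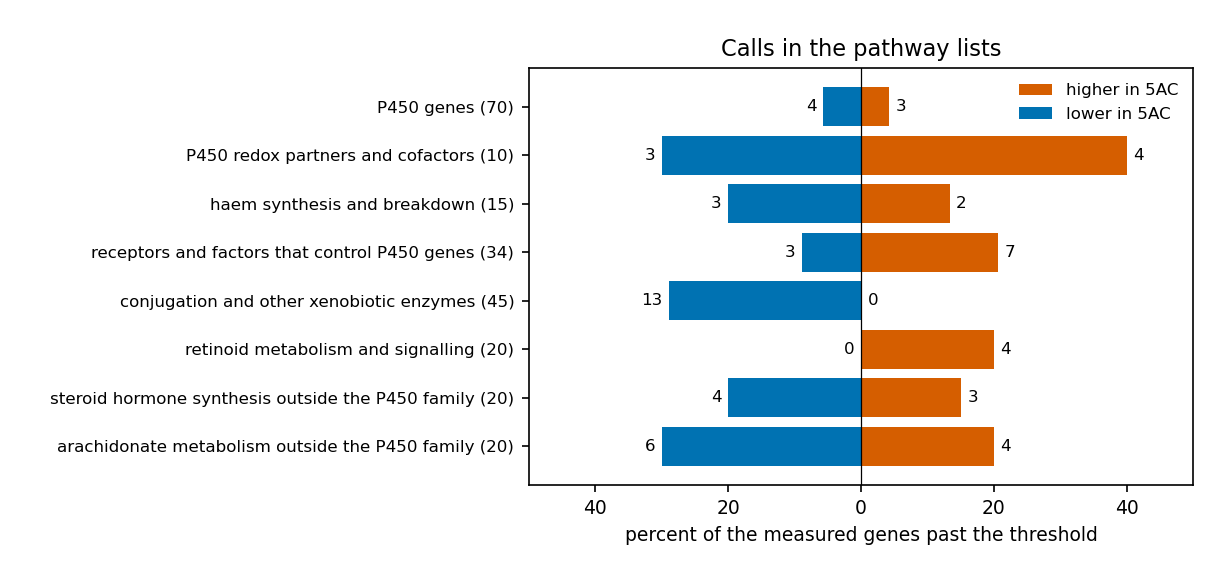
Percent of the measured genes of each list past the threshold, upwards to the right and downwards to the left, with the number of genes beside each bar and the number measured in parentheses. The 70 P450 genes have 3 up and 4 down, the conjugation enzymes 0 of 45 up and 13 down, and the retinoid genes 4 of 20 up and 0 down. Over all genes 15.5% rose and 13.8% fell past the threshold.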

How the data were processed

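RNA of 3 untreated and 3 5AC samples was measured, with groups as labelled. The deposited table gives linear intensity per probe set and array. Per the submitters' processing notes, GCOS 1.4 and R 2.4.1 were used, without saying for what; how probes were summarized, background-corrected and normalized is not given in the sources used here. Detection calls were not used. Symbols came from the platform annotation: 34945 probe sets had 1 symbol, 932 several and 9160 none. All 70 members matched the RefSeq gene table (GRCm38.p6), which was used for names and gene order.

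Values below 0 were set to 0 and limma 3.58.1 (lmFit, eBayes; R 4.3.3) was fitted to log2(intensity + 1), 2-sided, with Benjamini-Hochberg adjustment and a threshold of 0.05. One fit held 18193 genes, each with its probe set of the highest mean log2 value over the 6 arrays, and another all 45037 probe sets without the 64 controls. The procedure was tested on simulated data. The members and lists were chosen with earlier results of these data known. By the naming rule, array values were for members past the threshold with a change of at least 1 on the log2 scale and the largest change of each role group, and up to 4 genes were named per list; array values of other members were added after they were seen. Same-numbered arrays did not deviate together (correlations -0.00894, 0.00571 and -0.0118, against -0.0327 to 0.0379 for other pairs). The number of arrays limits the precision.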

Additional observations from a re-analysis of the deposited data

Results flagged for a closer look

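Among the P450 probe sets outside the symbol rule, those past the threshold belonged to Cyp4a12a, which rose, and Cyp51, which fell. Cyp4a12a, of the fatty acid hydroxylases, had -0.19, -0.19 and 0.62 on the untreated arrays and 7.04, 8.06 and 6.71 on the 5AC arrays, a log2 change of 2.81 (0.52 with 16 added), with a limma adjusted p of 0.00276 in the fit over all probe sets. The size of the change rests on values near 0, and all 6 lie below the median probe set. Cyp51, the lanosterol demethylase of cholesterol synthesis, also falls outside the rule. Its 3 probe sets changed by -0.96, -0.97 and -0.87, with the 5AC arrays below the untreated ones in each. The first fell from a mean of 282.8 to 145.3 (limma adjusted p 0.00412 in the same fit). The third fell from 541.8 to 295.4 (0.00346). The second was dimmer and did not pass, with an adjusted p of 0.168.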

How the results depend on the processing

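The alternatives were 16 added before the log, median centring, quantile normalization, only features above the median mean, an intensity trend in eBayes, the replicate number as a block, the mean over a gene's probe sets, each array left out, and, chosen after seeing the data, features with a value at or below 0 left out. None of them turned the direction of a member given by array that was past the threshold. Cyp2c55 and Cyp1b1 were called in each of them at the gene level, and Cyp4v3, Cyp39a1 and Cyp3a13 in each except the fit of features above the median mean, where 7 members were tested and these 3, Cyp2g1 and Cyp7a1 were not.

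The 3 members higher became 5 with 16 added, joined by Cyp4f13 and Cyp21a1. The fit of features above the median mean left out all 4 lower members, so its limma count of 0 lower (0 also at an unadjusted p under 0.05) says nothing about them. The 4 became 2 with the intensity trend (Cyp2g1 and Cyp7a1 dropped out), and 2 to 3 with an array left out. At the probe-set level the 5 higher became 2 to 5 and the 3 lower 1 to 3 with an array left out; the lower count was 1 among features above the median mean. Same-numbered arrays showed no shared deviation, and the labels do not say whether they were paired. With the replicate block the lower members became 2 (the same genes dropped out), and the higher and lower probe sets became 0, where 0 of all 45037 passed and 9 P450 probe sets had an unadjusted p under 0.05 upwards and 6 downwards. In the lists, the block took the genes higher from 4 to 1 (redox partners), 2 to 1 (haem), 0 to 3 (conjugation), 4 to 2 (retinoid) and 4 to 1 (arachidonate); the trend took haem lower from 3 to 5, and features above the median mean took retinoid lower from 0 to 1. The cause of these shifts was not tested. Low signal limits most members: 58 of 70 had a mean at or below the median probe set.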
